A study of Mus musculus with 8 samples.

Results

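The B cell identity genes are 9 mouse genes whose transcripts mark the B lymphocyte lineage: Cr2, Bank1, Ebf1, Pax5, Cd22, Cd79a, Cd79b, Ms4a1 and Blk. They were chosen by name, with earlier results of these data known, so shares of all probes set beside their counts are a description. A probe belonged to the set where the array's own annotation gives it 1 of these 9 symbols. Of 56587 probes used on each array, 19 carry such a name. Testing required that the scanner software flagged a probe as well above background in each sample of some group, which kept 32039 probes of the whole array and 16 of these 19, with at least 1 probe for each of the 9 genes. These 16 were well above background on all 8 arrays, so none of them passed through a single group. The 3 probes left out were the second probe of Bank1 and another 2 probes of Cd22, which were dim on nearly every array.

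The arrays were made from CD4+ T cells of C57BL/6 mice in 4 groups of 2 samples, in a study of how IL-6 limits T helper 1 responses under a tumour. The groups were tumour-bearing (TB) mice given anti-IL-6R, an antibody to the receptor of the cytokine IL-6, tumour-free (TF) mice given anti-IL-6R, TB mice given a control antibody and TF mice given a control antibody. TB mice carried MCA205, a fibrosarcoma line, engineered to express ovalbumin (OVA). Mice of all 4 groups had received transgenic CD4+ T cells with an OVA-specific receptor, then dendritic cells loaded with OVA peptide, and their CD4+ T cells were collected at day 4 after that immunisation, so each isolate can hold both transferred and host cells. The age and sex of the mice, the antibody clones and doses, the purity of the isolates and the number of mice behind a sample were not stated in the labels. Nothing in the labels says that samples came from separate animals, so the spread that p-values are built on is that between these samples and may be technical.

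B lymphocytes are made in the bone marrow under the transcription factors EBF1 and PAX5, which open B lineage genes and close those of other lineages. Mature B cells recognise antigen with a membrane immunoglobulin whose signal is carried by CD79A and CD79B, and surface proteins such as CD21, CD22 and CD20 raise or dampen that signal. CD4+ T cells are defined by the CD3 complex and CD4, and the 9 genes are used as markers of B cells rather than of T cells. In bulk samples such as these, fewer cells of a type and less RNA per cell cannot be told apart.

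The probes are 60-base oligonucleotides, placed by the array's annotation on mouse build mm9. For 3 probes the annotated stretch of genome is longer than the probe itself, as for a probe across an exon junction, and these are shown because their 60 bases are not 1 run of the genome. The Cd79a probe spans chr7:25684357-25684614 on the plus strand, the Blk probe spans chr14:63997333-63998470 on the minus strand, and 1 Cd22 probe, left out as dim, spans chr7:31661143-31662467 on the minus strand.
Cd79a probe: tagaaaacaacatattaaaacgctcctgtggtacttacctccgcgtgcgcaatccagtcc
Blk probe: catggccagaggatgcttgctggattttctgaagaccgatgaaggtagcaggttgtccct
Cd22 probe, not tested: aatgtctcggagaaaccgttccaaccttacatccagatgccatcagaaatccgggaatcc

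The brightest Ebf1 probe, at chr11:44431517-44431576 (mm9, plus strand), is shown because of where it lies. In RefSeq's promoter table for GRCm38.p6, which gives 250 bases before the annotated start of a gene, its 60 bases match the Ebf1 window chr11:44617850-44618099 from 85 to 26 bases before that start, and its last 6 bases are part of a run of A. In the window below, the probe is in capitals. The other tested Ebf1 probes lie up to 389.0 kb further along the plus strand, and their values are given beside its own.
Ebf1 window: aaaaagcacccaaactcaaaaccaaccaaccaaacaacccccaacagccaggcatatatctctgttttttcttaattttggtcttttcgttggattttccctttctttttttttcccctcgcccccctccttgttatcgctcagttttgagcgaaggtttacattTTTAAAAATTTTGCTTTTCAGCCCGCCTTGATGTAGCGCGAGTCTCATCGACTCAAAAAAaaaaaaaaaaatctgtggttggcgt

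The same RefSeq table holds 7 windows for 6 of the 9 genes (Cr2, Bank1, Ebf1, Pax5, Cd22 and Cd79a). They were searched on both strands for 4 motifs of B lineage factors, where N stands for any base: CCCNNGGG (EBF), CAGGTG (the E-box of the E2A proteins), ATGCAAAT (the octamer) and GAGGAAGT (PU.1). The E-box motif lay in 4 of the 7 windows, against 17.2% of 32851 promoter windows of the table, and the EBF motif in 2 of the 7, against 11.8%. No window held the octamer or the PU.1 motif, which 1.6% and 2.44% of all windows held. A match of letters is a description and no measured binding site, and both Ebf1 windows and the Pax5 window held none of the 4 motifs. The 4 windows with a match are shown with the matched letters in capitals. The Cr2 window, chr1:195176720-195176969 on the minus strand, has the E-box letters 88 bases before the start. The Bank1 window, chr3:136326067-136326316 on the minus strand, has them at 145 bases and the EBF letters at 21. In the Cd22 window, chr7:30879029-30879278 on the minus strand, the positions are 245 and 48. In the Cd79a window, chr7:24897247-24897496 on the plus strand, the E-box letters lie 154 bases before the start.
Cr2 window: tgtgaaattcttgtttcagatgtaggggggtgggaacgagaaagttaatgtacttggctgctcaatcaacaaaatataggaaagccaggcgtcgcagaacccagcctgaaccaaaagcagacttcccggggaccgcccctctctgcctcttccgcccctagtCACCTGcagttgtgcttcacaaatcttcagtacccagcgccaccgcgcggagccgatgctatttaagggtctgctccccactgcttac
Bank1 window: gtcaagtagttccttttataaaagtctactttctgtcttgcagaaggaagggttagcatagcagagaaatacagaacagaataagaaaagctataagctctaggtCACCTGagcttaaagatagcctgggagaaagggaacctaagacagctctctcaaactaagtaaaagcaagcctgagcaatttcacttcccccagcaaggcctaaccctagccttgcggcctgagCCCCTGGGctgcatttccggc
Cd22 window: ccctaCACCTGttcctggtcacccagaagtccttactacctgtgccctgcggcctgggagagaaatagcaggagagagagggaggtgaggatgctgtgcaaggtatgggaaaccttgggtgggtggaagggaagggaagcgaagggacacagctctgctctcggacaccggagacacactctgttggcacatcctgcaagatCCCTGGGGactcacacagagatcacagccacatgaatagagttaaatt
Cd79a window: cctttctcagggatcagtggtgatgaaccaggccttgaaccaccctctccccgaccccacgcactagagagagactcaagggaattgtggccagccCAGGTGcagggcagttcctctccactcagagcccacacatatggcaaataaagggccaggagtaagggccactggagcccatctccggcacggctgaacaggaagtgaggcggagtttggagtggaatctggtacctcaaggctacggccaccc

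The 8 arrays lay on 1 slide and came from 1 scan. Their unscaled 75th percentiles were 500.4 to 526 intensity units, 53.1% to 59.8% of probes were well above background, and no spot was saturated. Over the 32039 tested probes, arrays of the same group correlated at 0.992 to 0.993 and arrays of different groups at 0.978 to 0.992. The labelled cell type was present in all samples: the 15 measured pan T cell genes were well above background on all 8 arrays, with Cd4 at log2 levels of 5.15 to 5.65 and Cd3e at 6.19 to 6.47. On the slide, anti-IL-6R samples filled column 2 and control samples column 1, with TF samples in rows 1 and 2 and TB samples in rows 3 and 4, so position on the slide and treatment or tumour cannot be told apart.

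All levels below are log2 of the probe's processed signal minus log2 of the 75th percentile of its array, so that 0 is the brightness of that percentile. Each gene is described by its brightest tested probe, and levels of different genes are not set against each other, since probes differ in brightness. Differences were tested with limma over all 32039 probes, and called at a Benjamini-Hochberg adjusted p under 0.05.

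Ebf1 encodes early B cell factor 1, which starts the B lineage programme. Its levels were -0.34 and -0.35 in TB mice given anti-IL-6R, -0.54 and -0.55 in TF mice given anti-IL-6R, -1.07 and -1.505 in TB mice given control antibody, and -0.42 and 0.47 in TF mice given control antibody. Both TB control samples lay below the other 6, and the pair of TF control samples stood further apart than those of any other group. Under control antibody Ebf1 fell by 1.31 ± 0.26 (log2, SE) in TB against TF mice, with an adjusted p of 0.03.

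Pax5 encodes the factor that holds B cells to their lineage, and its brightest probe lies at chr4:44537936-44537995 (mm9, minus strand). Its levels were -1.88 and -1.5025 in TB mice given anti-IL-6R and -1.26 and -1.94 in TF mice given anti-IL-6R. They were -1.94 and -2.59 in TB control mice, against -1.03 and -1.34 in TF control mice. The control groups did not overlap, but 1 of the TB control samples was level with the lower TF sample under anti-IL-6R. The control-antibody difference of TB minus TF mice, -1.08 ± 0.29, had an adjusted p of 0.069 and was not called.

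Cd79a encodes the Ig-alpha chain of the B cell receptor. It had levels of -0.70 and -0.81 in TB mice given anti-IL-6R, -0.95 and -0.84 in TF mice given anti-IL-6R, -1.32 and -1.63 in TB control mice, and -0.85 and -0.42 in TF control mice. The TB control pair was below every other sample. Cd79a fell by 0.84 ± 0.17 in TB against TF mice under control antibody (adjusted p = 0.031).

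Cd79b, at chr11:106172780-106172839 (mm9), encodes the partner chain Ig-beta. Its levels were 4.53 and 4.37 in TB mice given anti-IL-6R, 4.497 and 4.5015 in TF mice given anti-IL-6R, 4.06 and 3.58 in TB control mice, and 4.33 and 4.70 in TF control mice. Again both TB control samples were the lowest of the 8. The TB minus TF difference under control antibody was -0.70 ± 0.17, with an adjusted p of 0.051, just outside the threshold.

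Bank1 encodes a scaffold that links the B cell receptor to calcium release, and its tested probe lies at chr3:135716867-135716926 (mm9). It had levels of 0.90 and 0.91 in TB mice given anti-IL-6R, 0.83 and 0.98 in TF mice given anti-IL-6R, 0.34 and -0.10 in TB control mice, and 0.83 and 1.31 in TF control mice. Its TB control samples were again the lowest of the 8. Bank1 fell by 0.95 ± 0.18 in TB against TF control mice (adjusted p = 0.027).

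Blk encodes a Src family kinase that acts downstream of the receptor. Its levels were -2.48 and -2.78 in TB mice given anti-IL-6R and -3.02 and -2.50 in TF mice given anti-IL-6R. They were -2.94 and -3.48 in TB control mice, against -2.69 and -2.37 in TF control mice. The control groups did not overlap, while the higher TB control sample lay above the lower TF sample under anti-IL-6R. Its control-antibody difference of TB minus TF mice was -0.68 ± 0.27 (adjusted p = 0.17).

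Cr2 encodes CD21, a complement receptor that lowers the threshold of the B cell receptor, and follicular dendritic cells also carry it. The brightest of its probes lies at chr1:196965532-196965591 (mm9, minus strand). Its levels were 2.24 and 2.21 in TB mice given anti-IL-6R, 2.11 and 2.19 in TF mice given anti-IL-6R, 1.48 and 1.12 in TB control mice, and 2.12 and 2.68 in TF control mice. The TB control pair lay below the other 6 samples. Cr2 fell by 1.09 ± 0.18 in TB against TF control mice, the smallest adjusted p among the 9 genes in this comparison (0.016).

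Cd22 encodes an inhibitory lectin of the B cell surface, read at chr7:31651249-31651308 (mm9, minus strand). It had levels of 0.96 and 1.25 in TB mice given anti-IL-6R, 0.54 and 0.86 in TF mice given anti-IL-6R, 0.52 and 0.57 in TB control mice, and 0.75 and 1.05 in TF control mice. The lower TF sample under anti-IL-6R lay between the TB control samples. Its TB minus TF difference under control antibody was -0.36 ± 0.15 (adjusted p = 0.2).

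Ms4a1 encodes CD20, the target of therapeutic antibodies that deplete B cells, and it was read at chr19:11325409-11325468 (mm9, minus strand). Its levels were 3.08 and 3.05 in TB mice given anti-IL-6R, 3.14 and 3.16 in TF mice given anti-IL-6R, 2.62 and 2.13 in TB control mice, and 2.93 and 3.28 in TF control mice. Both TB control samples lay below the other 6. Ms4a1 fell by 0.73 ± 0.16 in TB against TF control mice, with an adjusted p of 0.042.

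**Figure D1:**
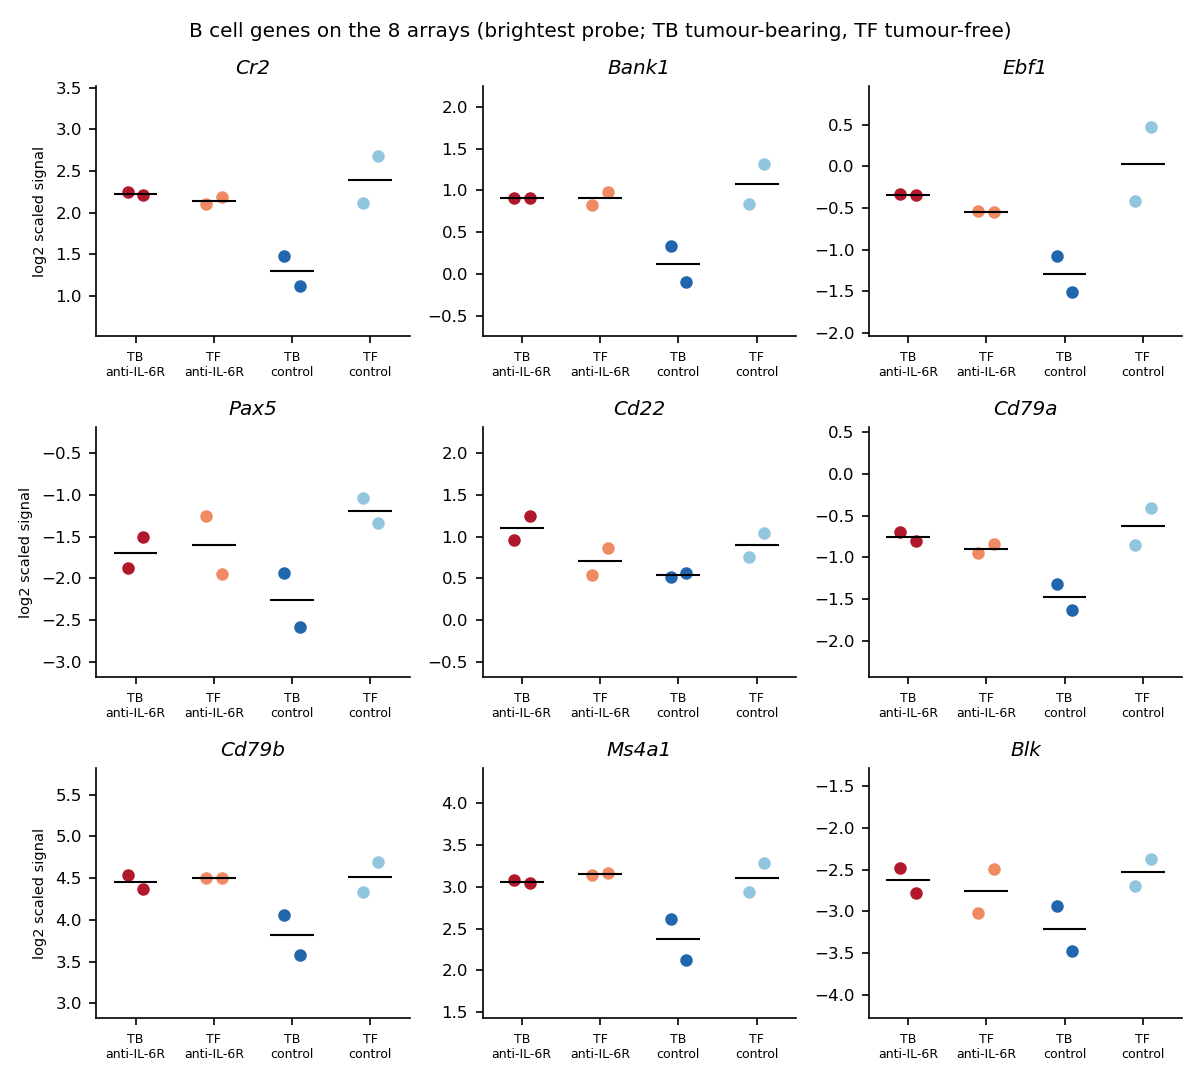
Levels of the 9 B cell genes, 1 panel a gene, as log2 of the processed signal relative to the 75th percentile of the array. Points are samples, grouped left to right as TB anti-IL-6R, TF anti-IL-6R, TB control and TF control, and bars are means of 2. All panels have the same height in log2 units, and the TB control mean is the lowest of the 4 in each.

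The order of the 4 group means was alike from gene to gene. TB control was the lowest group for 9 of 9 genes, and TF control was the highest for 7, the exceptions being Cd22, highest in TB mice given anti-IL-6R, and Ms4a1, highest in TF mice given anti-IL-6R. The share of all tested probes with these orders of means was not counted. Both TB control samples lay below all 6 others for 6 of the 9 genes (Cr2, Bank1, Ebf1, Cd79a, Cd79b and Ms4a1), against 12.3% of all tested probes. The means over the 9 genes were 0.70 and 0.71 in TB mice given anti-IL-6R, 0.59 and 0.65 in TF mice given anti-IL-6R, 0.19 and -0.21 in TB control mice, and 0.66 and 1.04 in TF control mice. The spread inside the control groups also ran across the set: replicate 4 was below replicate 3 of the TB control group for 8 of 9 genes (median difference -0.43, Cd22 the exception), and replicate 2 was above replicate 1 of the TF control group for 8 of 9 (median 0.37, Pax5 the exception). In the anti-IL-6R groups the replicates differed by a median of -0.03 in TB mice and 0.08 in TF mice.

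Across the 8 samples, the 36 pairs of these genes had Pearson correlations of 0.282 to 0.994 with a median of 0.880, which is a description, since the genes share arrays and scaling. The highest was between Cr2 and Bank1 and the lowest between Pax5 and Cd22. Ebf1 varied most, over 1.97 log2 units from its lowest to its highest sample, and Cd22 least, over 0.73. The lowest sample was replicate 4 of the TB control group for 8 genes and the highest was replicate 2 of the TF control group for 7.

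The first comparison asks what the tumour goes with under control antibody. In TB mice, 5 of the 9 genes were called lower than in TF mice (Cr2, Bank1, Ebf1, Cd79a and Ms4a1) and none higher, where 1.89% of all tested probes were called lower and 3.41% higher. All 9 differences were below 0, against 47.8% of all probes, with a median of -0.84 against 0.01 over all probes. The samples of the TB and TF groups did not overlap for any of the 9, against 24.6% of all probes that were lower in this way. At an unadjusted p under 0.05, 9 of 9 were lower, against 11.3%.
The calls rest on the spread between a few arrays. Leaving out replicate 2 (TF control) or replicate 4 (TB control) left 0 of 9 called, with 7 of 9 at an unadjusted limma p under 0.05 in each case, while leaving out replicate 1 gave 6; 0 were called without a trend in the variance (8 at an unadjusted p under 0.05) and 1 without the filter on dim probes.

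The second comparison asks what blocking the IL-6 receptor goes with in TB mice, and it uses the same pair of TB control samples, so it is not independent of the first. Here 1 of the 9 genes was called higher under anti-IL-6R than under control antibody, against 1.51% of all tested probes called higher and 2.77% called lower. That gene was Cr2, which rose by 0.92 ± 0.18 (adjusted p = 0.037). The other surface receptors gave 0.69 ± 0.16 for Ms4a1 (adjusted p = 0.053) and 0.56 ± 0.15 for Cd22 (0.066). Among the receptor chains and their partners, the differences were 0.72 ± 0.17 for Cd79a (0.052), 0.63 ± 0.17 for Cd79b (0.063), 0.79 ± 0.18 for Bank1 (0.051) and 0.58 ± 0.27 for Blk (0.21). The transcription factors gave 0.95 ± 0.26 for Ebf1 (0.069) and 0.57 ± 0.29 for Pax5 (0.24).
All 9 differences were above 0, against 44.2% of all probes, with a median of 0.69 against -0.04. The groups did not overlap for any of the 9, against 25.7% of all probes that were higher in this way. At an unadjusted p under 0.05, 7 of 9 were higher, against 11.7%. The number called was 0 to 4 when a single array was left out: it was 4 without replicate 1 or 2, 1 without replicate 3 (Ms4a1, with Cr2 at an adjusted p of 0.067), and 0 without replicate 4, 7 or 8, with 7 of 9 at an unadjusted limma p under 0.05 in each of these 3.

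The third comparison is the same antibody in mice without a tumour. None of the 9 genes was called, and 0.0312% of all tested probes were; 0 of 9 had an unadjusted limma p under 0.05, against 8.02% of all probes. The differences of anti-IL-6R minus control in TF mice ran from -0.57 for Ebf1 to 0.05 for Ms4a1, with a median of -0.23 against 0.02 over all probes. Of the 9, 8 were below 0, against 44.4% of all probes, and the smallest adjusted p was 0.62. At the brightest probes the groups overlapped for 8 of the 9 genes. Only for Ebf1 did both anti-IL-6R samples lie below both control samples, a pattern of 16.9% of all probes. Over the 16 tested probes, 7 had this pattern and 9 overlapped, with none called. The 7 include other probes of Cr2, Ebf1, Pax5, Cd22 and Ms4a1, and probes of 1 gene are not independent readings. The 95% interval was -0.66 to 0.16 for Cr2, -0.58 to 0.25 for Bank1, -0.32 to 0.42 for Ms4a1 and -1.17 to 0.02 for Ebf1. For the others it was -1.07 to 0.24 for Pax5, -0.54 to 0.15 for Cd22, -0.65 to 0.12 for Cd79a, -0.40 to 0.36 for Cd79b and -0.84 to 0.39 for Blk.

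The last of the pairwise comparisons sets TB against TF mice when both had anti-IL-6R. Again 0 of 9 genes were called, where 0.209% of all tested probes were, and 1 of 9 had an unadjusted limma p under 0.05, against 7.44% of all probes. The differences ran from -0.09 for Ms4a1 to 0.40 for Cd22, with a median of 0.08 against -0.05 over all probes. The 95% intervals were -0.33 to 0.49 for Cr2, -0.42 to 0.41 for Bank1, -0.39 to 0.80 for Ebf1, -0.24 to 0.53 for Cd79a and -0.46 to 0.28 for Ms4a1, the 5 genes called lower under control antibody. These 5 intervals hold none of the control-antibody estimates, although the difference between the antibodies has its own test, given next. For the others they were -0.43 to 0.33 for Cd79b, -0.74 to 0.57 for Pax5, -0.49 to 0.75 for Blk and 0.06 to 0.74 for Cd22, whose unadjusted p was 0.028 and adjusted p 0.59. Samples of TB mice lay above those of TF mice without overlap for 4 of the 9, against 16% of all probes, and below them for 1 (Ms4a1), against 31.8%. The other tested Ms4a1 probe differed in the opposite direction, by 0.42, and its groups overlapped. Over the 16 tested probes, TB samples lay above for 8 and below for 1, and 7 overlapped.

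**Figure D2:**
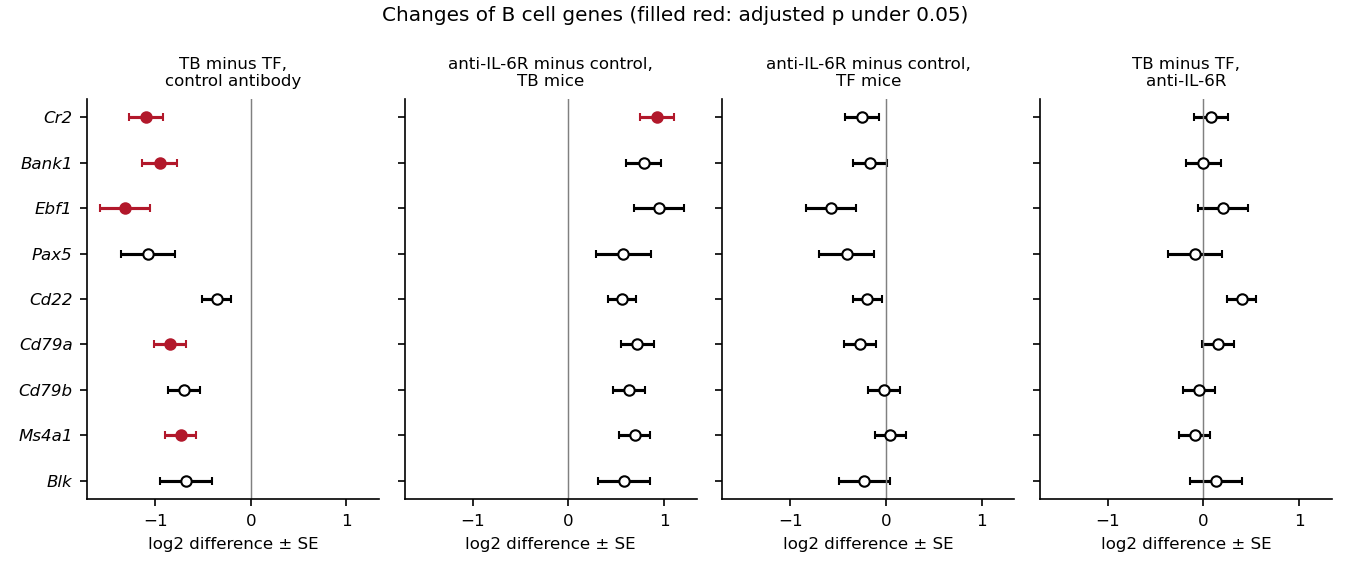
Log2 differences of the 9 genes in 4 comparisons, 1 panel each, with bars of 1 standard error from limma; filled red points were called at an adjusted p under 0.05. Points lie left of 0 for all 9 genes in TB minus TF mice under control antibody and right of 0 for all 9 in anti-IL-6R minus control in TB mice.

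Whether the antibody's effect differed between TB and TF mice was tested as an interaction, the anti-IL-6R effect in TB mice minus that in TF mice. No gene of the 9 was called, where 0.025% of all tested probes were. The estimates were above 0 for 9 of 9, against 42.1% of all probes, with a median of 0.95 against -0.07, and ran from 0.65 ± 0.23 for Ms4a1 to 1.52 ± 0.37 for Ebf1. The smallest adjusted p was 0.088, for Cr2 at 1.18 ± 0.25. At an unadjusted limma p under 0.05, 8 of 9 were above 0, against 10.3% of all probes, Blk being the exception at 0.066. Without replicate 1, Cr2 and Ebf1 were called, at 1.46 and 1.96 with adjusted p of 0.04 and 0.038.

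Several of these genes have more than 1 tested probe, which gives a further reading of the gene. Whether the probes of a gene read the same transcripts was not tested. The 3 Cr2 probes lie within 1.899 kb and gave differences of -1.09, -1.09 and -1.17 for TB minus TF mice under control antibody, all called. For Ebf1 the probe ahead of the annotated start gave -1.31, and the other 2 gave -1.26 and -1.21, all called. In TB mice these other probes of Ebf1 were also called higher under anti-IL-6R, at 1.03 ± 0.19 (adjusted p = 0.033) and 0.98 ± 0.15 (0.027), where the brightest was not. The second Ms4a1 probe gave -0.98 ± 0.25 (0.064) and, in TB mice under anti-IL-6R, 0.98 ± 0.25 (0.062), so neither was called.
The probes of Pax5 disagreed in size. Its second probe, at chr4:44692322-44692381 (mm9) and 154.4 kb from the brightest, had levels of -1.61 and -1.795 in TB mice given anti-IL-6R, -2.10 and -1.91 in TF mice given anti-IL-6R, -1.93 and -1.99 in TB control mice, and -1.71 and -1.85 in TF control mice. It differed by -0.18 ± 0.14 in TB minus TF control mice (adjusted p = 0.51), against -1.08 at the brightest probe, and by 0.26 in anti-IL-6R minus control in TB mice. Its sequence is shown because it gave the difference nearest 0 among the 16 in TB minus TF control mice.
Pax5 second probe: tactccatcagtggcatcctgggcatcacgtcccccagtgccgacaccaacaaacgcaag
The second Cd22 probe, at chr7:31651590-31651649 (mm9), also gave smaller values than the first, -0.21 ± 0.13 (adjusted p = 0.37) and 0.20. Over all 16 probes, 9 were called lower in TB than in TF mice under control antibody, against 1.89% of all tested probes. In TB mice, 4 were called higher under anti-IL-6R than under control antibody, against 1.51%. Cr2 and Ebf1 gave 3 each of the 9 calls and 2 each of the 4, and probes of 1 gene are not independent readings.

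**Figure D3:**
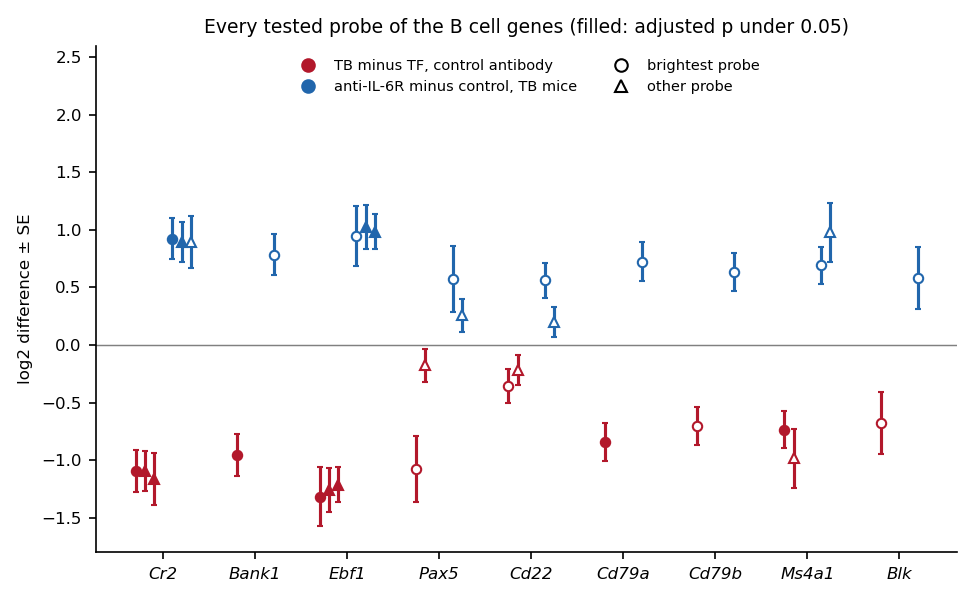
Log2 differences of the 16 tested probes of the 9 genes, with bars of 1 standard error from limma, in TB minus TF mice under control antibody (red) and anti-IL-6R minus control in TB mice (blue). Circles are the brightest probe of a gene, triangles its other probes, and filled symbols were called; the 3 probes of Cr2 and of Ebf1 sit together, while the second Pax5 probe lies nearer 0 than the first.

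The genes whose pattern was most like the mean of the 9 were found among 2225 others that varied by at least 1 log2 unit over the 8 samples. Likeness is Pearson's r over 8 samples and is a description. Among the 10 closest were Srpk3 (r = 0.981), Tdgf1 (0.981), Scd1 (0.979), Proca1 (0.9751), Cd180 (0.973), Herc2 (0.972), Tnfrsf13c (0.972), Chst3 (0.972) and Fcmr (0.971). Cd180 is a toll-like receptor homologue of B cells, Tnfrsf13c the receptor for the survival factor BAFF and Fcmr a receptor for IgM.

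Other genes of B cell receptor signalling moved less. Of 17 measured, 2 were called lower in TB than in TF mice under control antibody, Rasgrp3 (-0.65 ± 0.11, adjusted p = 0.018), an activator of Ras, and Cd72 (-0.46 ± 0.09, 0.035), an inhibitory co-receptor, and their median was -0.09. Syk, the kinase recruited by CD79 chains, was at -0.29 with an adjusted p of 0.37. In TB mice, anti-IL-6R raised 1 of the 17, Rasgrp3 (0.75 ± 0.11, 0.027), and the median was 0.28.
Calls among other surface genes of B cells went in both directions, while most differences were below 0. Of 22 measured, 16 were below 0 and 6 above in TB minus TF mice under control antibody, with a median of -0.41. Over all probes, 47.8% were below 0. In this comparison 3 of the 22 were called lower (Cd55, Tnfrsf13c and Cd72) and 3 higher (Cd200, Cxcr5 and Cd24a). Cd55, a brake on complement, was at -0.82 ± 0.10 (adjusted p = 0.0059) and Tnfrsf13c at -0.76 ± 0.15 (0.027). Cxcr5, the receptor that leads B cells and follicular helper T cells to follicles, was at 1.04 ± 0.16 (0.012), and Cd200 at 0.69 ± 0.08 (0.0054). In TB mice under anti-IL-6R, Cd55 (0.69 ± 0.10, 0.027) and the inhibitory Fc receptor Fcgr2b (0.95 ± 0.17, 0.03) were called higher, Cxcr5 was called lower (-1.21 ± 0.16, 0.027), and the median was 0.31.

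Beyond Ebf1 and Pax5, 17 transcription factors used by B cells were measured, several of which T cells also use. In TB against TF mice under control antibody, Ikzf3 (0.62 ± 0.09, adjusted p = 0.0092) and Pou2af1 (0.41 ± 0.08, 0.027) were called higher and Zfp318 (-0.56 ± 0.11, 0.026) lower, with a median of -0.03 that was 0.06 with the array median as the scale. In TB mice, Ikzf3 was the only one of the 17 called under anti-IL-6R, at -0.46 ± 0.09 (0.036), and Zfp318 was at 0.46 (0.052). Of 16 early B progenitor genes, 12 were measured, and Rag1, Rag2, Igll1 and Erg were not above the filter. Vpreb3, a chaperone of the receptor's light chain, was called lower in TB than in TF control mice (-0.69 ± 0.10, 0.011) and higher under anti-IL-6R in TB mice (0.73 ± 0.10, 0.027), as was Il7r in the second comparison (0.69 ± 0.09, 0.027), which T cells also express.

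Genes of later stages of the B lineage gave differences above 0 in most cases, 12 of 12 plasma cell markers and 9 of 11 germinal centre genes in TB minus TF mice under control antibody. Of 12 measured plasma cell markers, 5 were called higher in TB than in TF mice under control antibody and none lower, with a median of 0.50. Derl3 rose by 1.60 ± 0.12 (adjusted p = 0.00097), Mzb1 by 1.22 ± 0.15 (0.0058), Jchain, the joining chain of secreted IgM and IgA, by 1.76 ± 0.29 (0.016) and Xbp1, a factor of secretory cells, by 0.51 ± 0.09 (0.019). Tnfrsf17 was not well above background on either TF control array and was at least 1.60-fold higher (adjusted p = 0.036), a bound from the dimmest signal called above background on those arrays. Under anti-IL-6R in TB mice, 1 of the 12 was called, Derl3, which fell by 0.92 ± 0.12 (0.027).
Among 11 germinal centre genes, 3 were called higher in TB than in TF control mice, among them Bcl6 and S1pr2. Bcl6 (0.55 ± 0.09, adjusted p = 0.018) is also the master factor of follicular helper T cells, and S1pr2 (0.77 ± 0.14, 0.023) is carried by them too. The list's median was 0.30, and 0.05 with groups dim on both arrays raised to the dimmest signal called above background. None of the 11 was called under anti-IL-6R in TB mice by limma, with 1 at an unadjusted p under 0.05.

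Markers of other cell types moved with the same groups, and their part in the results on the 9 genes was not tested. For each list, signals relative to the 75th percentile were summed over its measured genes. The 9 B cell genes summed to 39.7 to 42.0 in TB mice given anti-IL-6R, 40.7 to 41.6 in TF mice given anti-IL-6R, 21.8 to 29.6 in TB control mice and 37.6 to 49.4 in TF control mice. The 15 pan T cell markers summed to 1095 to 1223, 1252 to 1314, 1373 to 1392 and 1159 to 1294 in the same order of groups, so that TB control mice were highest where they were lowest for the B cell genes. Of these 15, 1 was called higher in TB than in TF control mice, Cd5 at 0.39 ± 0.08 (adjusted p = 0.04), a call absent under normexp background correction and with the array median as the scale, and limma called none under anti-IL-6R in TB mice, with 9 at an unadjusted p under 0.05.

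Red cell and neutrophil genes showed the larger shifts. Of 14 erythroid markers, 10 were called higher in TB than in TF control mice, led by Gata1 (0.79 ± 0.09, adjusted p = 0.0037), the lineage's main factor, and Rhd (4.66 ± 0.54, 0.0047), and 8 were called lower under anti-IL-6R in TB mice. Their summed signal was 500.4 to 612 in TB mice given anti-IL-6R, 518 to 623 in TF mice given anti-IL-6R, 502 to 768 in TB control mice and 198 to 382 in TF control mice. Of 14 neutrophil markers, 5 were called higher in TB than in TF control mice, among them the granule genes Camp (4.31 ± 0.23, 0.00026) and Ltf (4.95 ± 0.34, 0.00066), the last above background on 1 of 2 TF control arrays, and 5 were called lower under anti-IL-6R in TB mice. Their summed signal was 36.7 to 55.4, 39.4 to 156, 121 to 129 and 34.9 to 55.4 in the same order of groups. For plasma cell markers the sums were 49.1 to 52.6, 40.6 to 46.6, 62.7 to 67.8 and 38.7 to 41.8.

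The medians of antigen presentation genes, natural killer (NK) cell markers and myeloid markers had the same sign as that of the 9 genes in both comparisons. They were -0.39 and 0.47 for the MHC class II genes, -0.42 and 0.60 for the NK markers and -0.45 and 0.56 for the myeloid markers. All 9 MHC class II genes were below 0 in TB minus TF mice under control antibody, with 1 called, H2-Ob (-0.54 ± 0.10, adjusted p = 0.023), and all 9 were above 0 under anti-IL-6R in TB mice, with H2-Ob called again (0.47 ± 0.10, 0.044). With the array median as the scale, neither H2-Ob call held and 8 of 9 kept each direction. Their summed signal was 434 to 447 in TB mice given anti-IL-6R, 400.1 to 433 in TF mice given anti-IL-6R, 247 to 386 in TB control mice and 382 to 418 in TF control mice. Of 12 NK cell markers, 4 were called lower in TB than in TF control mice, among them the receptor genes Klra8 (-1.17 ± 0.13, 0.0041) and Klra4 (-1.43 ± 0.16, 0.0041), and 1 higher (Klrb1c, 0.87 ± 0.18, 0.035). In TB mice, 5 of the 12 were called higher under anti-IL-6R, with Klra8 at 1.17 ± 0.13 (0.021), and the summed signals were 47.3 to 52.5, 47.2 to 54.1, 31.7 to 46.1 and 41.2 to 43.5 in the same order. Of 12 myeloid markers, 10 were below 0 in TB minus TF mice under control antibody and 12 above 0 under anti-IL-6R in TB mice. Limma called none of them in TB against TF control mice, with 3 at an unadjusted p under 0.05, and 1 was called higher under anti-IL-6R in TB mice, Cd14 (1.14 ± 0.25, 0.047). Their sums were 291 to 320, 245 to 297, 194 to 261 and 227 to 244. All 12 NK and all 12 myeloid markers were well above background on all 8 arrays.

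**Figure D4:**
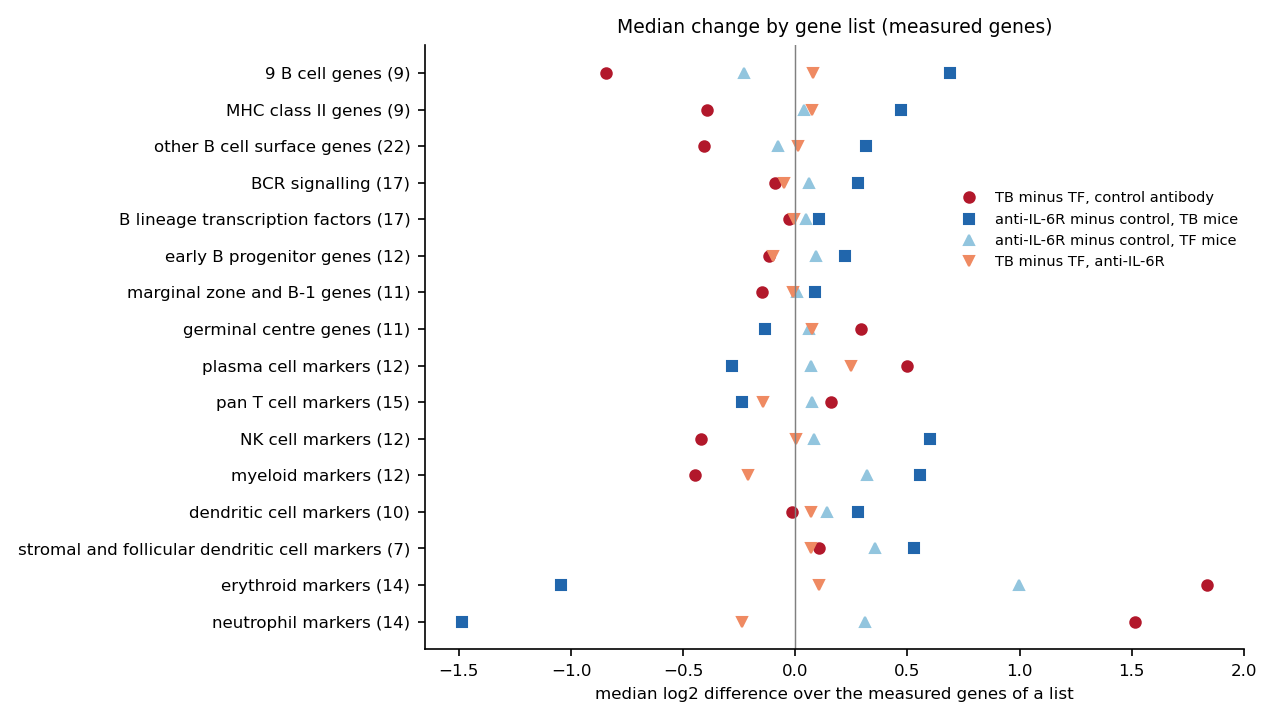
Median log2 difference over the measured genes of 16 lists, with the number measured in brackets, in 4 comparisons. Red circles are TB minus TF mice under control antibody and blue squares anti-IL-6R minus control in TB mice; for the 9 B cell genes these lie at -0.84 and 0.69, and for erythroid markers on the opposite sides of 0.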

How the data were processed

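RNA of 8 samples was labelled with cyanine 3 from 0.1 µg each and hybridised to 1 Agilent array a sample, per the labels' protocols. The deposited scanner files hold intensity values; the submitters' processing notes name Agilent Feature Extraction 10.10.1.1, and per the file headers the probes follow mouse build mm9. The deposited value table holds log2 values with no processing stated; they matched log2 of the processed signal minus the array's 75th percentile (r = 1.0 in each column, median difference at most 0.00814, column medians -3.34 to -3.09). It was used as an alternative.

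Each array has 62976 spots. The 3671 control spots and 60 to 95 outlier spots an array were dropped, spots of a probe were averaged, and 18 of 56605 probes without a usable spot were left out. The log2 signal minus the array's 75th percentile was fitted with limma 3.58.1 in R 4.3.3 as 4 group means over all 8 arrays, with an intensity trend (4 residual and 4.28 prior degrees of freedom), two-sided, adjusted over 32039 probes. The small number of arrays limits the precision. A gene counts by its tested probe with the highest mean. The fit was also run on simulated data, with noise drawn independently for each probe and array. That noise has no shifts shared across genes, so the simulation cannot speak to the spread inside the control groups.

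The genes named are the 9 members, the 10 genes most like their mean, and up to 4 genes with the smallest p in each list described. Beside these, the text names further genes that were called in a list of 5 or fewer calls, chosen after their values were seen. Results of some genes of these lists are not reported here. The members and lists were chosen with earlier results of these data known. RefSeq symbols and promoter windows (GRCm38.p6) came from the reference tables. Alternatives were background correction, scaling, the filter, the variance model, the arrays fitted, the probe rule, the deposited table and leaving out each array.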

Additional observations from a re-analysis of the deposited data

Results flagged for a closer look

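At the brightest probes of Cr2, Ebf1, Cd22 and Cd79a, both TB samples lay above both TF samples under anti-IL-6R and below them under control antibody. The other Cr2 probes had this order too. It was absent at the other Ebf1 probes, where the groups overlapped under anti-IL-6R (differences 0.13 and -0.02). The second Cd22 probe also lacked it, since its groups overlapped under control antibody. By brightest probes, this order of samples was found in 4 of the 9 genes and in 5.62% of all tested probes. The anti-IL-6R side of it was small: the differences of TB minus TF mice were 0.08 for Cr2, 0.21 for Ebf1, 0.40 for Cd22 and 0.15 for Cd79a, with limma adjusted p of 0.87, 0.77, 0.59 and 0.74, so none was called. The interaction, the tumour's effect under anti-IL-6R minus that under control antibody, was estimated at 1.18 for Cr2, 1.52 for Ebf1, 0.76 for Cd22 and 0.99 for Cd79a. At its brightest probe Ebf1 also split by host, with both anti-IL-6R samples above both control samples in TB mice and below them in TF mice. The difference in TF mice was -0.57 (limma adjusted p = 0.62), and the interaction estimate is the same 1.52. By brightest probes, this order was seen in 1 of the 9 genes and in 6.08% of all tested probes. Other probes of Cr2, Ebf1, Pax5, Cd22 and Ms4a1 had it too. None of the 4 genes passed limma's interaction test at its brightest probe. The adjusted p was 0.088 for Cr2, 0.099 for Ebf1 and Cd79a and 0.11 for Cd22, so a difference between the groups was not shown at this threshold.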

How the results depend on the processing

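No paired analysis was possible because the replicate numbers run from 1 to 8 and no group shares a number with another; slide and scan were not fitted as a block, since the arrays lay on 1 slide and 1 scan. In TB minus TF mice under control antibody and in anti-IL-6R minus control in TB mice, no direction of any of the 9 genes changed under any alternative run, and the medians ran from -0.995 to -0.63 and from 0.57 to 0.90 when a single array was left out. Sizes of single genes moved by over 1.5 times in some settings. In the first, without replicate 4 Blk was at -0.41, Cd79b at -0.46 and Ms4a1 at -0.49, without replicate 2 Cd22 was at -0.21 and Ebf1 at -0.87, under normexp Blk was at -0.36 and Pax5 at -0.71, and Pax5 was at -0.63 by the median over its probes. In the second, without replicate 4 Pax5 was at 0.25, Blk at 0.31, Cd79b at 0.39 and Ms4a1 at 0.45, without replicate 3 Pax5 was at 0.90, and under normexp Blk was at 0.27. In the interaction, without replicate 4 Blk was at 0.54, Cd79b at 0.41 and Ms4a1 at 0.40, without replicate 6 Pax5 was at 0.64, under normexp Blk was at 0.37 and Pax5 at 0.61, and Ms4a1 was at 1.02 by the median over its probes. The calls moved too. In the first, 5 of 9 were called, against 1 with no filter on dim probes and 0 without a trend in the variance, and 0 to 6 with 1 array left out. Cr2 and Bank1 lost their call without replicate 2 or 4, Ebf1 and Cd79a without 2, 3 or 4, and Ms4a1 without 2, 4, 5, 6, 7 or 8, while Cd79b was called without 1 or 3 and Pax5 without 5 or 6. In the second, 1 of 9 was called, against 2 with normexp background correction, 3 with array median scaling, 0 with no filter, 4 with probes above background on all arrays, 0 without a trend, 4 with array weights, 2 with only the groups compared in the fit, 4 with 1 probe per gene, 2 by the median over a gene's probes, and 0 to 4 with 1 array left out. The interaction's median, 0.95, was 0.71 under normexp and 0.71 to 1.14 with 1 array left out, with 0 to 2 genes called. The cause was not tested.

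Uncalled differences near 0 changed sign in the other comparisons. In TB minus TF mice under anti-IL-6R, Bank1 was at 0.0080 under normexp and 0.0339 under quantile normalization, Cd79b at 0.0659 under quantile normalization, Ms4a1 at 0.0084 under quantile normalization and 0.17 by the median over its probes, Pax5 at 0.11 by that median, and Cr2 at -0.0241 with median scaling. With 1 array left out the ranges there were -0.0787 to 0.0769 for Bank1, -0.13 to 0.39 for Blk, -0.13 to 0.0331 for Cd79b and -0.43 to 0.25 for Pax5. In anti-IL-6R minus control in TF mice, Cd79b was at 0.0111 under normexp and 0.0096 with median scaling, and Ms4a1 at -0.0237 under quantile normalization and -0.19 by the median over its probes. The ranges with 1 array left out were -0.41 to 0.0741 for Bank1, -0.49 to 0.0335 for Blk, -0.20 to 0.17 for Cd79b, -0.53 to 0.0312 for Cr2 and -0.13 to 0.22 for Ms4a1.

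Over all probes, 1696 were called in the first comparison, against 683 with no filter, 724 without a trend, 904 with array weights, and 427, 615 and 1000 without replicate 2, 3 and 4. In the second 1372 were called, against 2679 with median scaling, 15 with no filter, 56 without a trend, 904 with only the groups compared, and 913, 204, 317 and 24 without replicate 1, 3, 4 and 8. The interaction's 8 ran from 0 with no filter to 439 with median scaling (364, 24, 199 and 276 without replicate 1, 4, 6 and 7); median scaling moved the median of all probes from -0.07 to -0.26, and in the second comparison from -0.04 to -0.20. The 10 calls in TF mice and the 67 in mice given anti-IL-6R ran from 1 to 47 and from 11 to 219 over all settings.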

Other observations

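Genes of marginal zone and B-1 cells, 2 specialised B cell subsets, and markers of dendritic and stromal cells complete the lists examined. Of 11 measured marginal zone and B-1 genes, Plscr1 (0.87 ± 0.09, adjusted p = 0.0028) and Cd5 (0.39 ± 0.08, 0.04), which is also a T cell gene, were called higher in TB than in TF mice under control antibody, and Plscr1 was called lower under anti-IL-6R in TB mice (-0.56 ± 0.09, 0.028). The median of the 11 was -0.15 in the first comparison and 0.09 in the second.

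None of 10 dendritic cell markers was called by limma in either comparison, with 4 and 3 of them at an unadjusted p under 0.05 and medians of -0.01 and 0.28, the first of which was 0.03 under quantile normalization and 0.07 with the array median as the scale. Of 7 measured stromal and follicular dendritic cell markers, none was called by limma in TB against TF control mice, with 2 at an unadjusted p under 0.05, and Clu was called higher under anti-IL-6R in TB mice (1.11 ± 0.19, 0.03). Their summed signal was 41.5 to 43.4 in TB mice given anti-IL-6R, 42.5 to 48.5 in TF mice given anti-IL-6R, 27.0 to 41.9 in TB control mice and 36.5 to 38.2 in TF control mice. Cr2 is carried by follicular dendritic cells as well as by B cells, and the part of these cells in its values was not tested.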
